A study of Homo sapiens with 12 samples.

Results

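The 48 genes described here encode SR proteins, the CLK and SRPK kinases that phosphorylate them, factors of splice site recognition and of the spliceosome core, and hnRNP proteins. They were taken by name from a list of splicing genes by role, a list drawn up with earlier results of these data known. Of the 48, 46 had a value of their own in the array table, out of 16944 genes kept in all. The entries of U2AF1 and LUC7L2 were shared with other genes, and these genes were not analysed here. SRSF8, DYRK1A and U2AF2 lay under the filter on low signals (a mean log2 signal of 5.94 over all arrays), which left 43 members among 10166 genes tested. PRPF4B is listed by the array annotation under its other symbol, PRP4K. HNRNPA1 has near-identical copies, and entries annotated jointly to it and to a pseudogene carried the same values, so its value is uncertain in that respect.

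In the study 2 Ewing sarcoma cell lines, A673 and TC32, were kept for 6 hours in DMSO, the solvent, or in THZ531 at a lower dose of 100 nM or a higher dose of 500 nM, and the labels state no other agent or genetic change. Ewing sarcoma arises in bone and soft tissue and carries a fusion between EWSR1 and a gene of the ETS family. THZ531 binds covalently to CDK12 and CDK13, kinases that act on RNA polymerase II during elongation. Both lines grew in serum-supplemented medium, and each of the 6 groups had 2 arrays, called biological replicates. The design text speaks of treatment in duplicate, and nothing says whether the duplicates came from separate cultures, so the p-values measure only the spread between these samples, which may be technical.

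SR proteins bind exonic enhancers through RNA recognition motifs and recruit splicing components through a domain rich in arginine and serine. SRPK kinases phosphorylate that domain in the cytoplasm, which allows import into the nucleus, and CLK kinases phosphorylate it further there and release SR proteins from nuclear speckles. hnRNP proteins often oppose SR proteins at the same exons. Many SR, hnRNP and CLK genes control their own mRNA through exons or retained introns whose inclusion leads to decay or nuclear retention of the transcript. The array gave 1 value per gene, so isoforms of a member cannot be told apart.

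Values are log2 signals. Array medians over the tested genes were lower at the higher doses, from 8.87 and 8.78 in A673 with DMSO to 7.98 and 7.43 at 500 nM, and from 8.08 and 7.94 in TC32 with DMSO to 6.87 and 6.88 at 500 nM. Whether the authors scaled the arrays to the added spike-in RNA is not given in the sources used here, so a shift of whole arrays and a difference in scaling cannot be told apart. In bulk RNA of this kind, fewer cells and less RNA per cell also cannot be told apart. Each comparison with DMSO is therefore given on 2 scales, that of the deposited values and one relative to the array medians, that is, after subtraction of each array's median over all 16944 genes. The shift removed was -0.62 and -0.83 in A673 at 100 and 500 nM, and -0.21 and -0.79 in TC32. In A673 at 500 nM, replicate 2 had a median offset of -0.52 from replicate 1. All 7 measured genes of a list of 8 Ewing sarcoma markers passed the filter, with a summed log2 signal between 14.15 and 15.12 on every array. FLI1 of this list ranged from 5.44 to 10.87, and its TC32 mean at 500 nM, 5.66, lay under the filter level. BCL11B ranged from 6.51 to 10.9, with means of 6.87 in A673 and 6.84 in TC32 at 500 nM. The measured genes of this list other than FLI1 were above the level on every array. Lists of 4 haematopoietic, 4 epithelial, 4 endothelial and fibroblast and 4 neural markers had 2, 2, 2 and 4 genes above the filter level on average, and summed log2 signals between 7.61 and 9.78. PTPRC of the haematopoietic list and EPCAM of the epithelial list did not exceed 4.23 and 4.40 on any array, under the filter level. Other genes of these lists were higher. CD79A (6.52 to 7.44), MUC1 (6.76 to 8.03) and CLDN4 (6.57 to 8.0) were above the level on every array. HBB (5.72 to 7.5), CD3E (5.16 to 6.38) and KRT5 (5.28 to 6.35) lay on both sides of it.

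At 500 nM, 6 members were lower than in DMSO in both lines under each of 4 scalings of the arrays: the splicing regulators RBM5, RBM39 and SON, the SR protein SRSF4, the kinase CLK2 and the tri-snRNP protein PRPF3. The share of all tested genes lower in both lines under all 4 scalings is not given here for either dose. Relative to the array medians alone, 27.4% of all tested genes in A673 and 30.7% in TC32 were lower at 500 nM. RBM5 fell furthest, by 1.91 in A673 and by 2.11 in TC32 relative to the array medians. Most snRNP core and hnRNP genes and 5 SR and Tra2 genes in each line were higher than DMSO relative to the array medians, while none of them was higher as deposited. Over all tested genes, 29.8% in A673 and 41.3% in TC32 were higher relative to the array medians. CLK1 stood highest among the members relative to the array medians in A673, at 1.13. At 100 nM, only CLK2, PRPF3 and SON were lower in both lines under the 4 scalings run. Relative to the array medians, 18 members were called above DMSO in both lines at that dose, CLK1, CLK3, PRPF4B and LUC7L3 among them. Over all tested genes, 24.5% in A673 and 30.6% in TC32 were higher at 100 nM on that scale, and the share higher in both lines is not given here. The 4 scalings were the values as deposited, centring on array medians, centring on array 75th percentiles, and quantile normalisation. A member was counted as called when limma's adjusted p over all tested genes was under 0.05.

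In A673 at 500 nM, 37 of 43 members were called lower as deposited and 0 higher (limma; also 0 higher at an unadjusted p under 0.05), where 82.5% and 0.944% of all tested genes were called in those directions. Relative to the array medians, 11 were lower and 19 higher, beside 27.4% and 29.8% of all genes. The split was 6 lower and 30 higher with 75th percentiles, and 16 lower and 13 higher with quantile normalisation. Shares of all tested genes under these scalings are not given, here or below. Splits under them can therefore not be set beside all genes. The member median was -0.62 as deposited and 0.21 relative, against -0.73 and 0.10 over all tested genes. Without A673 DMSO replicate 1 the deposited count of lower members was 23, without A673 500 nM replicate 2 there were 2 higher members, and without A673 DMSO replicate 2 the relative count of lower members was 6.

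In TC32 at 500 nM, 25 members were lower as deposited and 0 higher (limma; also 0 higher at an unadjusted p under 0.05), beside 62.9% and 0.944% of all genes. On the relative scale, 10 were lower and 23 higher, beside 30.7% and 41.3%. The split was 7 lower and 29 higher with 75th percentiles, and 17 lower and 15 higher with quantile normalisation. The member median was -0.48 as deposited and 0.32 relative, against -0.64 and 0.15 over all tested genes. Without either A673 500 nM array the deposited count of lower members was 40. With array medians removed, 9 members were lower in both lines, out of 11 in A673 and 10 in TC32, and 19 were higher in both, out of 19 and 23. On either scale, 0 members were called in opposite directions in the 2 lines at 500 or 100 nM. Shares of all tested genes called in both lines, or in opposite directions, are not given here. These overlaps can therefore not be read as particular to the members.

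In A673 at 100 nM, 18 members were lower as deposited and 0 higher (limma; also 0 higher at an unadjusted p under 0.05), beside 58.7% and 1.32% of all genes. After centring on array medians, 3 were lower and 25 higher, beside 17.1% and 24.5%. The split was 3 lower and 29 higher with 75th percentiles, and 11 lower and 15 higher with quantile normalisation. The member median was -0.33 as deposited and 0.29 relative, against -0.52 and 0.10 over all tested genes. The deposited count of lower members was 7 without A673 DMSO replicate 1, 10 without A673 100 nM replicate 1, 6 without A673 100 nM replicate 2 and 29 without either A673 500 nM array, where 1 member was higher. The relative count of higher members was 14 without A673 DMSO replicate 1 and 15 without A673 100 nM replicate 2, and that of lower members was 2 without A673 100 nM replicate 2.

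In TC32 at 100 nM, 6 members were lower and 6 higher as deposited, beside 20.9% and 5.55% of all genes. Relative to the array medians, 6 were lower and 22 higher, beside 21.2% and 30.6%. The split was 5 lower and 29 higher with 75th percentiles, and 9 lower and 17 higher with quantile normalisation. The member median was 0.06 as deposited and 0.27 relative, against -0.07 and 0.14 over all tested genes. The 6 higher as deposited were CLK1, CLK3, PRPF4B, RBM25, LUC7L3 and HNRNPU, each also higher under the other 3 scalings. The deposited count of lower members was 1 without TC32 DMSO replicate 1 or TC32 100 nM replicate 1, and 3 without TC32 DMSO replicate 2 or TC32 100 nM replicate 2. The deposited count of higher members was 13 without either A673 500 nM array, 1 without TC32 DMSO replicate 2 and 3 without TC32 100 nM replicate 2. On the relative scale, 3 members were lower without TC32 DMSO replicate 1, TC32 DMSO replicate 2 or TC32 100 nM replicate 1, and 13 were higher without TC32 100 nM replicate 2.

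**Figure D1:**
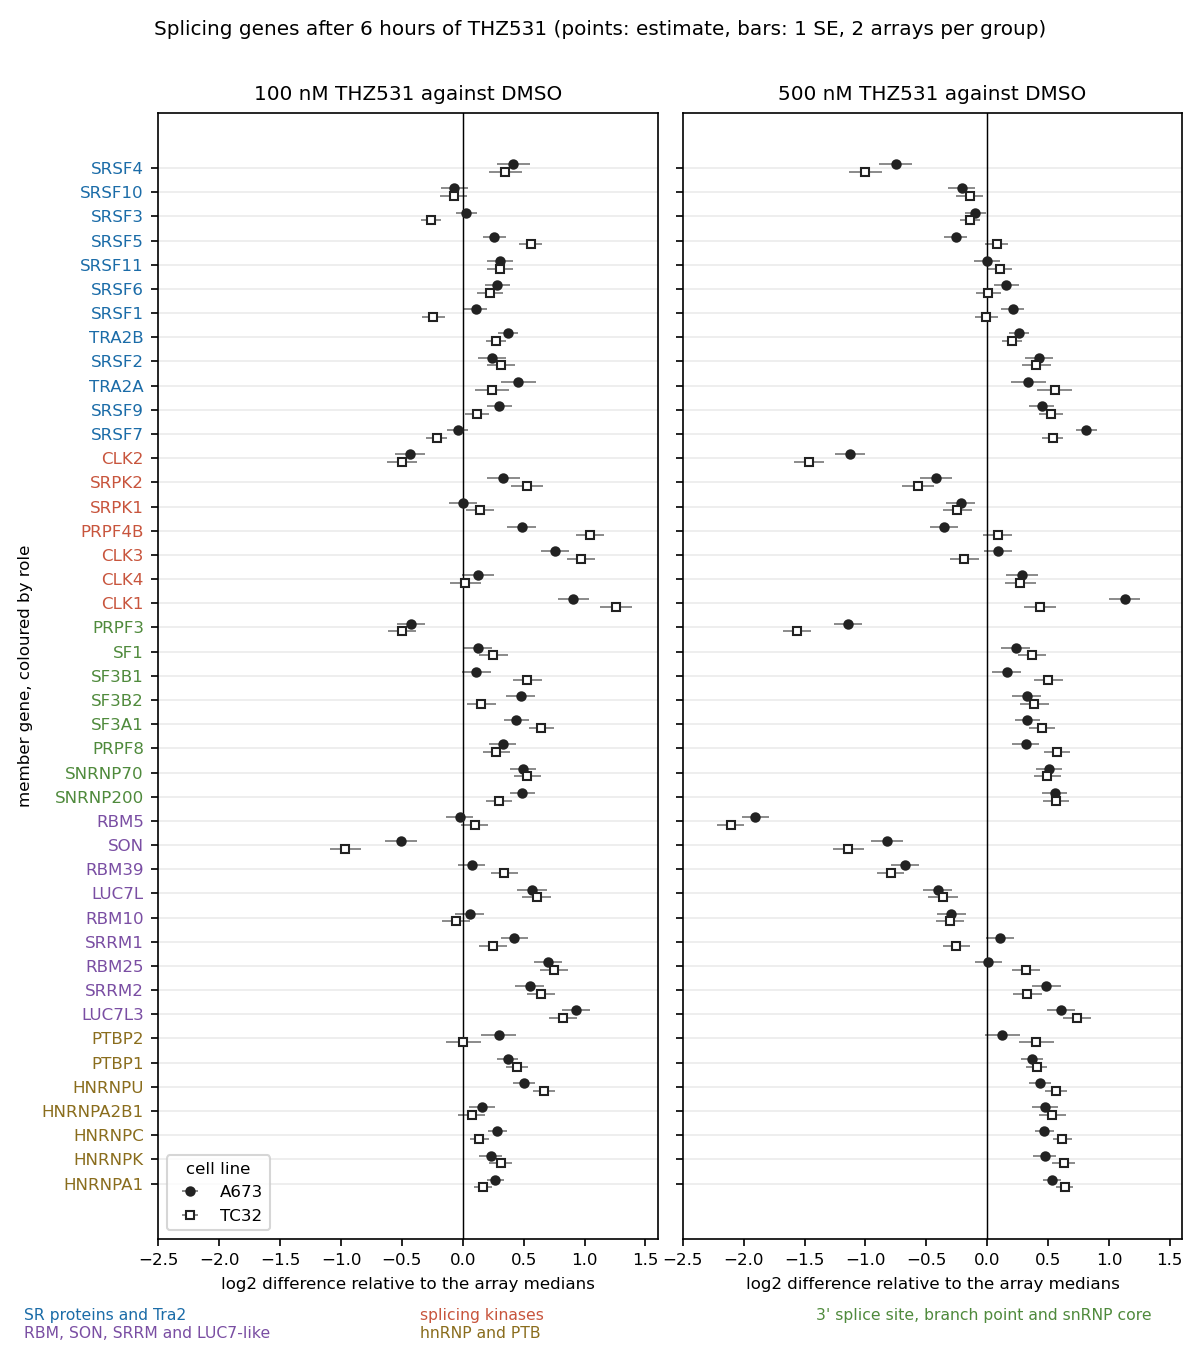
Log2 difference from DMSO relative to the array medians (x axis) for the 43 tested members (y axis, coloured by role) at 100 nM and 500 nM THZ531; filled circles are A673, open squares TC32 and bars 1 SE, with 2 arrays per group. RBM5, at -1.91 and -2.11, lies farthest left at 500 nM and near 0 at 100 nM; as deposited, most members lie below DMSO at 500 nM, and quantile normalisation brings most hnRNP genes near 0.

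The promoters of 43 of the 48 members were found in RefSeq (GRCh38.p14), and those of SRSF2, TRA2A, PRPF3, RBM39 and HNRNPA1 were not. Their median G+C content over the 250 bases before the start was 64%, against 58% over 27305 promoters. Letters of 9 motifs were searched on both strands in those bases, and a match is a description only. The GC box GGGCGG occurred in 55.8% of member promoters and 42.3% of all, the CCAAT box CCAAT in 41.9% and 33%, the ETS core CCGGAAG in 18.6% and 8.82%, TGACG, a part of the cAMP response element, in 32.6% and 21.7%, and the TATA box TATAAA in 11.6% and 11.1%. The whole cAMP response element TGACGTCA, which contains TGACG, and the NRF1 core motif were found in 0 of 43 (1.77% and 1.13% of all), the YY1 core AAGATGGCG in 1 (0.641% of all) and GGAAGGAA in 2 (2.99% of all). The 120 bases before the start, 5′ to 3′ on the gene's strand with matches (the letters or their reverse complement) in capitals, are shown for 3 members that were lower and 2 that were higher than DMSO at 100 or 500 nM, so that the regions ahead of members moving apart can be read side by side. The regions are chr3:50088799-50088918 (plus strand) for RBM5, chr1:155273505-155273624 (minus) for CLK2, chr21:33542918-33543037 (plus) for SON, chr2:200864659-200864778 (minus) for CLK1 and chr17:50719483-50719602 (plus) for LUC7L3, on GRCh38.p14.
RBM5: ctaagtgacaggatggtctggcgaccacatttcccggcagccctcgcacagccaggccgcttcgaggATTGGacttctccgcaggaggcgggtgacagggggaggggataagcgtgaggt
CLK2: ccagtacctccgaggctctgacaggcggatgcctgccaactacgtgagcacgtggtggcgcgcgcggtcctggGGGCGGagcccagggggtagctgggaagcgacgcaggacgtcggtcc
SON: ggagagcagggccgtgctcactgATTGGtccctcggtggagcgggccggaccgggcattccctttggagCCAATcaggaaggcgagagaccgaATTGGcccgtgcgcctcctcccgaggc
CLK1: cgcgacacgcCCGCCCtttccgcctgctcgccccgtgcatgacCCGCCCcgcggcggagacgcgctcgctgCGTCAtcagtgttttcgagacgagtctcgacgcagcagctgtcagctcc
LUC7L3: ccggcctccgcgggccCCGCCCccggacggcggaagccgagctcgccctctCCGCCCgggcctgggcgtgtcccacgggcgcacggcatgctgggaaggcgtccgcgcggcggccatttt
The windows of SON and RBM5 held CCAAT boxes (3 and 1), those of CLK2, CLK1 and LUC7L3 held GC boxes (1, 2 and 2), and that of CLK1 also held TGACG. Over the 250 bases LUC7L3, which was higher relative to the array medians, had a CCAAT box too. GC boxes stood ahead of CLK2, which was lower than DMSO, and of CLK1, which was higher relative to the array medians.

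Among the SR proteins and Tra2 proteins, SRSF4 was the member that fell at 500 nM in both lines under all 4 scalings. As deposited, 11 of 12 tested genes of this group were lower in A673 at 500 nM and 9 of 12 in TC32, while relative to the array medians 2 and 1 were lower and 5 in each line higher. The shares of all tested genes were 82.5% and 62.9% lower as deposited. Relative to the array medians they were 27.4% and 30.7% lower, and 29.8% and 41.3% higher. The group medians were -0.65 and -0.70 as deposited and 0.18 and 0.09 relative, but -0.22 in both lines with quantile normalisation, so the direction of the group depended on the scaling. SRSF4, which acts on alternative exons including those of muscle transcripts, measured 10.83 and 10.98 under DMSO, then 10.69 and 10.70 at 100 nM and finally 9.56 and 9.07 at 500 nM in A673. In TC32 its log2 signals as deposited were 9.83 and 9.50 under DMSO, then 9.79 and 9.82 at 100 nM and finally 7.78 and 7.96 at 500 nM. All 500 nM arrays lay below every DMSO and 100 nM array of their line. With array medians removed SRSF4 was above DMSO at 100 nM, by 0.41 (SE 0.13, adjusted p = 0.0164) in A673 and 0.35 (SE 0.13, adjusted p = 0.0338) in TC32, and the differences at 500 nM were -0.75 (SE 0.13, adjusted p = 6.34e-05) and -1.0 (SE 0.13, adjusted p = 1.03e-06). The rise at 100 nM was not called with quantile normalisation (0.21, adjusted p = 0.0809, and 0.20, adjusted p = 0.0855), nor without A673 DMSO replicate 1 (0.22), A673 100 nM replicate 2 (0.38), TC32 DMSO replicate 2 (0.22) or TC32 100 nM replicate 2 (0.27). The direct comparison of 500 with 100 nM gave -1.17 (SE 0.13, adjusted p = 3.15e-07) in A673 and -1.35 (SE 0.13, adjusted p = 1.71e-08) in TC32.

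SRSF7, a shuttling SR protein with a zinc knuckle, moved the other way between the doses. In A673 its log2 signals relative to the array median were 5.37 and 5.50 under DMSO, then 5.46 and 5.33 at 100 nM and finally 6.26 and 6.24 at 500 nM. TC32 read 5.44 and 5.50 under DMSO, then 5.20 and 5.32 at 100 nM and finally 5.97 and 6.05 at 500 nM. The 500 nM arrays stood above all other arrays of their line on this scale. SRSF7 differed from DMSO at 500 nM by 0.81 (SE 0.086, adjusted p = 4.84e-08) in A673 and 0.54 (SE 0.086, adjusted p = 1.2e-05) in TC32, and between 500 and 100 nM by 0.86 (SE 0.086, adjusted p = 4.9e-08) and 0.75 (SE 0.086, adjusted p = 1.54e-07). The rise between the doses was called under every alternative run relative to the array medians in both lines, but as deposited it was called in A673 (0.64, adjusted p = 0.000462) and not in TC32 (0.16, adjusted p = 0.384). Against DMSO, the TC32 value turned to -0.070 with quantile normalisation, and as deposited SRSF7 was -0.019 (adjusted p = 0.909) in A673 and -0.26 (adjusted p = 0.149) in TC32. Without A673 500 nM replicate 2 the deposited A673 value was 0.23 (adjusted p = 0.0467).

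SRSF1, the founding SR protein and an activator of many exons, measured 12.56 and 12.46 under DMSO, then 12.04 and 11.96 at 100 nM and finally 12.12 and 11.65 at 500 nM as deposited in A673. The TC32 signals were 11.92 and 11.79 under DMSO, then 11.37 and 11.44 at 100 nM and finally 10.98 and 11.12 at 500 nM. Its DMSO arrays were the highest of each line. As deposited SRSF1 fell at 500 nM by 0.62 in A673 (adjusted p = 0.00039) and by 0.80 in TC32 (adjusted p = 4.71e-06), and once array medians were removed it was 0.21 (adjusted p = 0.0663) and -0.0070 (adjusted p = 0.946). At that dose SRSF1 was called lower in both lines with quantile normalisation (-0.24 and -0.51) and higher in both with 75th percentiles (0.48 and 0.27). At 100 nM in TC32 it was lower under all 4 scalings, at -0.24 (SE 0.10, adjusted p = 0.0401) relative to the array medians, but that call was lost without any 1 of the A673 100 and 500 nM arrays, without either TC32 DMSO array and without TC32 100 nM replicate 1 (adjusted p = 0.0544 to 0.29).

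SRSF3, the smallest SR protein and a regulator of its own poison exon, measured 13.15 and 12.99 under DMSO, then 12.50 and 12.46 at 100 nM and finally 12.33 and 11.94 at 500 nM as deposited in A673. TC32 gave 12.43 and 12.35 under DMSO, then 11.92 and 11.92 at 100 nM and finally 11.42 and 11.50 at 500 nM. The signals stepped down from DMSO to 100 nM to 500 nM in both lines, with no overlap between groups. As deposited it fell by 0.93 in both lines at 500 nM (adjusted p = 1.44e-08 and 1.23e-08), and the differences were -0.10 and -0.14 once array medians were removed (adjusted p = 0.318 and 0.137). With quantile normalisation SRSF3 was lower in both lines at 500 nM (-0.56 and -0.75, adjusted p = 2.27e-07 and 1.02e-08). With 75th percentiles it was called higher in A673 (0.17, adjusted p = 0.0336) and not called in TC32 (0.14, adjusted p = 0.0786). TC32 at 100 nM was lower under all 4 scalings, at -0.26 (SE 0.084, adjusted p = 0.0126) relative, but not without TC32 DMSO replicate 1, TC32 DMSO replicate 2 or TC32 100 nM replicate 1 (adjusted p = 0.0825, 0.0629 and 0.0904).

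TRA2B, a partner of SR proteins that binds purine-rich enhancers, measured 5.60 and 5.61 under DMSO, then 5.97 and 5.98 at 100 nM and finally 5.87 and 5.86 at 500 nM relative to the array median in A673. TC32 arrays measured it at 5.55 and 5.45 under DMSO, then 5.72 and 5.81 at 100 nM and finally 5.64 and 5.76 at 500 nM. DMSO arrays were the lowest of each line on this scale, whereas as deposited the 500 nM arrays were. At 500 nM TRA2B was higher by 0.26 (SE 0.082, adjusted p = 0.0107) in A673 and 0.20 (SE 0.082, adjusted p = 0.0309) in TC32 relative to the array medians, and lower as deposited (-0.58 and -0.59) and with quantile normalisation (-0.20 and -0.39, both called). The relative call was also lost without A673 500 nM replicate 1 (0.25), TC32 DMSO replicate 1 (0.25), TC32 DMSO replicate 2 (0.15) or TC32 500 nM replicate 2 (0.15). Its paralogue TRA2A was higher at 500 nM under the 3 scalings that remove whole-array shifts, at 0.34 (adjusted p = 0.0468) and 0.55 (adjusted p = 0.00171) relative to the array medians, but the A673 call was lost without any 1 of the A673 arrays other than DMSO replicate 2 and without either TC32 DMSO array (adjusted p = 0.0564 to 0.824). The remaining SR genes lay between -0.26 (SRSF5) and 0.45 (SRSF9) in A673 at 500 nM and between -0.15 (SRSF10) and 0.52 (SRSF9) in TC32 on that scale. SRSF2 and SRSF9 were higher than DMSO at 500 nM in both lines relative to the array medians (0.43 and 0.40 for SRSF2, 0.45 and 0.52 for SRSF9), but with quantile normalisation SRSF2 lay at 0.12 and 0.072 and SRSF9 at -0.020 and -0.046, none of them called. SRSF6, SRSF10 and SRSF11 were not called at 500 nM relative to the array medians in either line (adjusted p between 0.108 and 0.982), and were lower as deposited in both. SRSF5 was lower at 500 than at 100 nM in both lines (-0.52 and -0.48, adjusted p = 0.000161 and 0.000193). SRSF8, untested, had deposited signals of 6.38 to 7.31 in A673 and 4.0 to 5.11 in TC32.

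**Figure D2:**
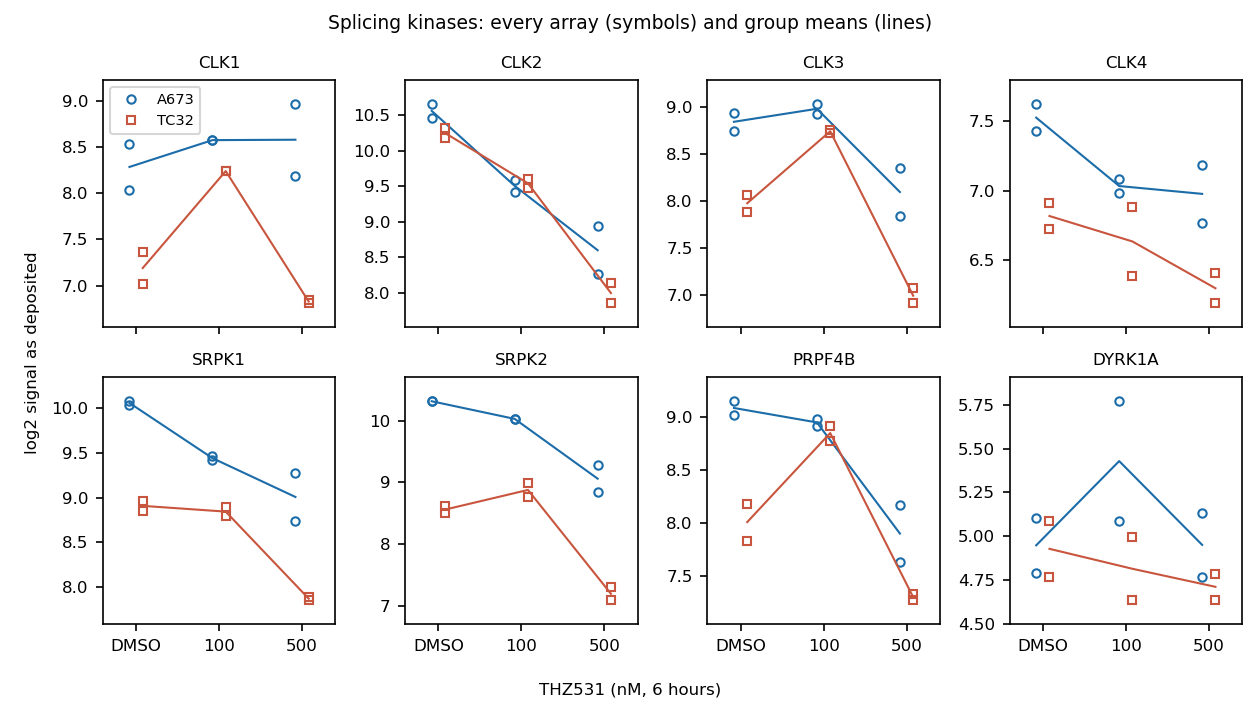
Log2 signal as deposited (y axis, own range per panel) of the 8 splicing kinases on every array (symbols; circles A673, squares TC32) by treatment (x axis, DMSO or THZ531 in nM), with lines through group means. CLK2 steps down in both lines to between 7.85 and 8.94 at 500 nM, while CLK1, CLK3 and PRPF4B in TC32 peak at 100 nM; DYRK1A lies under the filter level of 5.94 on every array and was not tested.

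Of the splicing kinases, CLK2 fell with dose, while CLK3, PRPF4B and SRPK2 in both lines and CLK1 in TC32 had their highest group mean at 100 nM relative to the array medians. CLK2, a dual-specificity kinase of SR proteins, measured 10.66 and 10.47 under DMSO, then 9.59 and 9.43 at 100 nM and finally 8.94 and 8.26 at 500 nM as deposited in A673. In TC32 it measured 10.33 and 10.18 under DMSO, then 9.48 and 9.61 at 100 nM and finally 8.14 and 7.85 at 500 nM. Each dose lay below the one before it in both lines, with no overlap. As deposited CLK2 was 3.9-fold lower in A673 and 4.78-fold lower in TC32 at 500 nM. After centring on array medians it fell by 0.44 in A673 (adjusted p = 0.00673) and by 0.50 in TC32 (adjusted p = 0.00184) at 100 nM, and the 500 nM differences were -1.13 (SE 0.12, adjusted p = 7.3e-08) and -1.46 (SE 0.12, adjusted p = 8.36e-10). The step from 100 to 500 nM was -0.69 (SE 0.12, adjusted p = 9.36e-05) in A673 and -0.96 (SE 0.12, adjusted p = 7.83e-07) in TC32. Only the 100 nM call in A673 was lost relative to the array medians, without A673 100 nM replicate 2 (-0.39, adjusted p = 0.0787), and as deposited that in TC32 was lost without TC32 DMSO replicate 1 (-0.63) or TC32 100 nM replicate 1 (-0.64).

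CLK1, a kinase whose own transcript is held in the nucleus with retained introns in many cells, measured 8.54 and 8.03 under DMSO, then 8.58 and 8.57 at 100 nM and finally 8.97 and 8.19 at 500 nM as deposited in A673. The TC32 signals were 7.36 and 7.02 under DMSO, then 8.24 and 8.24 at 100 nM and finally 6.81 and 6.85 at 500 nM. Both TC32 arrays at 100 nM stood above all other TC32 arrays, and those at 500 nM below DMSO, whereas the A673 arrays at 500 nM overlapped DMSO. Relative to the array medians CLK1 rose at 100 nM by 0.91 (SE 0.13, adjusted p = 1.03e-05) in A673 and 1.26 (SE 0.13, adjusted p = 7.07e-08) in TC32. At 500 nM the differences from DMSO were 1.13 (SE 0.13, adjusted p = 2e-07) and 0.43 (SE 0.13, adjusted p = 0.00609), the latter not called without TC32 DMSO replicate 2 (0.29, adjusted p = 0.117). As deposited, only the TC32 rise at 100 nM was called, at 1.05 (SE 0.21, adjusted p = 5.4e-06), and the TC32 value at 500 nM was -0.36 (adjusted p = 0.114). Between the doses CLK1 fell in TC32, at -0.82 (SE 0.13, adjusted p = 1.4e-05), while A673 gave 0.22 (SE 0.13, adjusted p = 0.2).

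CLK1 was also the 1 member whose 500 nM effect differed between the lines: TC32 minus A673 was -0.70 (SE 0.18, adjusted p = 0.0181) relative to the array medians, where 9.85% of all tested genes were called (1.83% as deposited). Both lines were above DMSO on this scale, A673 by more. As deposited the difference was -0.66 (adjusted p = 0.387), and 0 members were called (1 at an unadjusted p under 0.05, limma). The relative call was lost without A673 500 nM replicate 1 (-0.54, adjusted p = 0.118), TC32 DMSO replicate 1 (-0.56, adjusted p = 0.135) or TC32 500 nM replicate 1 (-0.65, adjusted p = 0.0667). Without A673 DMSO replicate 1 TRA2A (0.52) was called beside CLK1, and without A673 DMSO replicate 2 SRRM1 (-0.48). With quantile normalisation 8 members were called and with 75th percentiles 6, PRPF3 (-0.48 and -0.41), PRPF4B (0.47 and 0.44), SRSF5 (0.28 and 0.34) and SRRM1 (-0.33 and -0.36) among them in both settings. The shares of all tested genes called in those settings are not given here. For the 100 nM effect 0 members were called relative to the array medians (3 lower and 3 higher at an unadjusted p under 0.05, limma), beside 2.66% of all genes. As deposited 1 member, PRPF4B, was called, beside 2.32% of all genes, with TC32 minus A673 at 0.98 (adjusted p = 0.0455; relative 0.56, adjusted p = 0.068). That deposited call was lost without any 1 array other than A673 500 nM replicates 1 and 2 (adjusted p = 0.0538 to 0.455) and with no filter on low values (adjusted p = 0.0561), and stood at an adjusted p of 0.05 with the filter at the 60th percentile. SON was called for 100 nM with 75th percentiles (-0.46), with quantile normalisation (-0.43) and without A673 DMSO replicate 2 (-0.61).

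CLK3, a further member of the CLK family, measured 8.94 and 8.75 under DMSO, then 8.93 and 9.03 at 100 nM and finally 8.35 and 7.85 at 500 nM as deposited in A673. TC32 gave 8.07 and 7.89 under DMSO, then 8.73 and 8.76 at 100 nM and finally 6.92 and 7.08 at 500 nM. The 100 nM arrays were the highest of TC32 and the 500 nM arrays the lowest of both lines. At 100 nM CLK3 rose relative to the array medians by 0.76 (SE 0.12, adjusted p = 2.68e-05) in A673 and 0.97 (SE 0.12, adjusted p = 6.64e-07) in TC32, and at 500 nM it stood at 0.088 and -0.19 (adjusted p = 0.531 and 0.155). From 100 to 500 nM it fell by 0.67 in A673 (adjusted p = 8.63e-05) and by 1.16 in TC32 (adjusted p = 2.58e-08). Against DMSO at 500 nM, CLK3 was lower as deposited in both lines (-0.75 and -0.98, adjusted p = 0.000694 and 7.16e-06). With 75th percentiles and quantile normalisation it was called higher in A673 (0.36 and 0.37) and not called in TC32 (0.09 and 0.15). CLK4, the remaining kinase of the family, measured 7.63 and 7.43 under DMSO, then 7.08 and 6.99 at 100 nM and finally 7.19 and 6.77 at 500 nM as deposited in A673. TC32 arrays measured it at 6.91 and 6.72 under DMSO, then 6.89 and 6.38 at 100 nM and finally 6.41 and 6.19 at 500 nM. Its groups overlapped at 100 nM in TC32, and relative to the array medians neither dose passed the test against DMSO (adjusted p between 0.0643 and 0.891). As deposited CLK4 was lower at 500 nM (-0.55, adjusted p = 0.0135, and -0.52, adjusted p = 0.0238) and in A673 at 100 nM (-0.49, adjusted p = 0.036). At 500 nM it was called higher in both lines with 75th percentiles (0.55 in each) and with quantile normalisation (0.43 and 0.51). Its direction at 500 nM thus depended on the scaling.

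PRPF4B is a kinase of the tri-snRNP. On the relative scale it rose at 100 nM by 0.48 (SE 0.12, adjusted p = 0.00203) in A673 and 1.05 (SE 0.12, adjusted p = 1.78e-07) in TC32, and fell from 100 to 500 nM by 0.84 (adjusted p = 4.48e-06) and by 0.96 (adjusted p = 3.3e-07). At 500 nM against DMSO it was -0.35 in A673 (adjusted p = 0.0138) and 0.085 in TC32 (adjusted p = 0.515). The A673 value was not called with 75th percentiles (-0.081), with quantile normalisation (-0.073) or without A673 DMSO replicate 2 (-0.29) or A673 500 nM replicate 2 (-0.32). In TC32 PRPF4B was called higher with 75th percentiles (0.36) and with quantile normalisation (0.40). As deposited it was lower at 500 nM in both lines (-1.185 and -0.709, adjusted p = 5.23e-08 and 0.00145). SRPK2, one of the cytoplasmic SR protein kinases, measured 10.32 and 10.31 under DMSO, then 10.03 and 10.03 at 100 nM and finally 9.28 and 8.84 at 500 nM as deposited in A673. In TC32 it measured 8.61 and 8.50 under DMSO, then 8.76 and 9.0 at 100 nM and finally 7.09 and 7.30 at 500 nM. The 500 nM arrays were below all others of their line. With array medians removed SRPK2 was higher at 100 nM (0.33 and 0.53; adjusted p = 0.0467 and 0.00233) and lower at 500 nM, at -0.42 (SE 0.13, adjusted p = 0.00987) in A673 and -0.57 (SE 0.13, adjusted p = 0.000678) in TC32.

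The direct step of SRPK2 from 100 to 500 nM was -0.76 in A673 (adjusted p = 7.8e-05) and -1.10 in TC32 (adjusted p = 3.12e-07), called under every alternative run and as deposited. Its A673 call against DMSO at 500 nM was lost without A673 DMSO replicate 2 (-0.30), without A673 500 nM replicate 1 (-0.41) and with 75th percentiles (-0.15), its TC32 call at 100 nM without TC32 100 nM replicate 2 (0.35), and its A673 call at 100 nM without any 1 of the A673 arrays other than DMSO replicate 2 and without either TC32 DMSO array (adjusted p = 0.0613 to 0.273). SRPK1 fell at 500 nM as deposited in both lines (-1.05 and -1.04) but not relative to the array medians (-0.22 and -0.25; adjusted p = 0.11 and 0.063). Of the 7 tested kinases, 4 in A673 and 6 in TC32 were lower at 500 than at 100 nM and 0 higher in either line (limma; also 0 at an unadjusted p under 0.05), with medians of -0.67 and -0.96. Among all tested genes 25.2% were lower and 10.5% higher in A673 in that comparison, and 29.8% and 29.2% in TC32, with medians of 0.02 and 0.07.

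Among factors of the branch point, the 3′ splice site and the snRNP core, PRPF3 stood apart from the others. PRPF3, a protein of the U4/U6 particle needed for tri-snRNP assembly, measured 9.27 and 9.07 under DMSO, then 8.17 and 8.08 at 100 nM and finally 7.45 and 6.94 at 500 nM as deposited in A673. The TC32 signals were 9.31 and 9.16 under DMSO, then 8.48 and 8.58 at 100 nM and finally 6.86 and 6.90 at 500 nM. Signals fell at each dose in both lines without overlap. After centring on array medians the fall was 0.43 in A673 (adjusted p = 0.00442) and 0.50 in TC32 (adjusted p = 0.000925) at 100 nM, and -1.15 (SE 0.11, adjusted p = 1.66e-08) and -1.56 (SE 0.11, adjusted p = 7.72e-11) at 500 nM, with a step between the doses of -0.72 (adjusted p = 2.22e-05) and -1.06 (adjusted p = 5.08e-08). As deposited, PRPF3 was 3.94-fold lower in A673 and 5.12-fold lower in TC32 at 500 nM. Its deposited call at 100 nM in TC32 (-0.71) was lost without TC32 DMSO replicate 1 (-0.63) or TC32 100 nM replicate 1 (-0.66).

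The other 7 tested core factors were above DMSO relative to the array medians at 500 nM, by 0.16 to 0.55 in A673 (5 called) and by 0.37 to 0.57 in TC32 (all 7 called), with the same direction under quantile normalisation and the opposite one as deposited. Calls of higher signal relative to the array medians covered 29.8% of all tested genes in A673 and 41.3% in TC32. With quantile normalisation SF3A1 (0.14, adjusted p = 0.065) and PRPF8 (0.16, adjusted p = 0.0958) were no longer called in A673. The calls of SF3A1, SF3B2 and PRPF8 in A673 and of SF1 and SF3B2 in TC32 were lost without 1 or more single arrays, with values of 0.24 to 0.34. SNRNP200, the helicase that unwinds U4/U6, measured 4.02 and 4.17 under DMSO, then 4.49 and 4.68 at 100 nM and finally 4.63 and 4.66 at 500 nM relative to the array median in A673. TC32 gave 3.68 and 3.68 under DMSO, then 3.90 and 4.04 at 100 nM and finally 4.16 and 4.32 at 500 nM. DMSO arrays were the lowest of each line. The differences at 500 nM were 0.55 (SE 0.11, adjusted p = 0.000157) in A673 and 0.56 (SE 0.11, adjusted p = 9.01e-05) in TC32, and those as deposited -0.28 and -0.23 (adjusted p = 0.15 and 0.268). At 100 nM the relative values were 0.49 (adjusted p = 0.000854) and 0.29 (adjusted p = 0.0256), the TC32 call being lost without TC32 DMSO replicate 1 (0.29), TC32 DMSO replicate 2 (0.29) or TC32 100 nM replicate 2 (0.23).

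SF3B1, the U2 snRNP subunit that contacts the branch point, measured 2.16 and 1.95 under DMSO, then 2.18 and 2.15 at 100 nM and finally 2.23 and 2.19 at 500 nM relative to the array median in A673. TC32 arrays measured it at 1.61 and 1.44 under DMSO, then 2.14 and 1.97 at 100 nM and finally 2.11 and 1.94 at 500 nM. The TC32 DMSO arrays lay below all treated TC32 arrays, while the A673 arrays overlapped between DMSO and 100 nM. SF3B1 rose in TC32 at both doses on this scale, by 0.53 (SE 0.12, adjusted p = 0.000888) and 0.50 (SE 0.12, adjusted p = 0.000905), and the A673 values were 0.11 and 0.16 (adjusted p = 0.477 and 0.251). The A673 value at 500 nM was called higher with 75th percentiles (0.43, adjusted p = 0.00798) and with quantile normalisation (0.41, adjusted p = 0.0197). As deposited it was called lower (-0.67, adjusted p = 0.00221). The difference between the lines was not called at either dose relative to the array medians. SF3A1 and SF3B2, further U2 snRNP subunits, stood at 0.33 and 0.33 in A673 and at 0.45 and 0.39 in TC32 at 500 nM on that relative scale. PRPF8, the protein at the catalytic centre of the spliceosome, stood at 0.32 and 0.57, and SF1, which binds the branch point first, at 0.23 and 0.37. SNRNP70, the U1 snRNP protein of 5′ splice site recognition, was higher at both doses in both lines relative to the array medians (0.49 to 0.53), but not as deposited (-0.33 to 0.32). U2AF2, which binds the polypyrimidine tract, was under the filter level on average and untested, with deposited signals of 5.33 to 6.43.

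**Figure D3:**
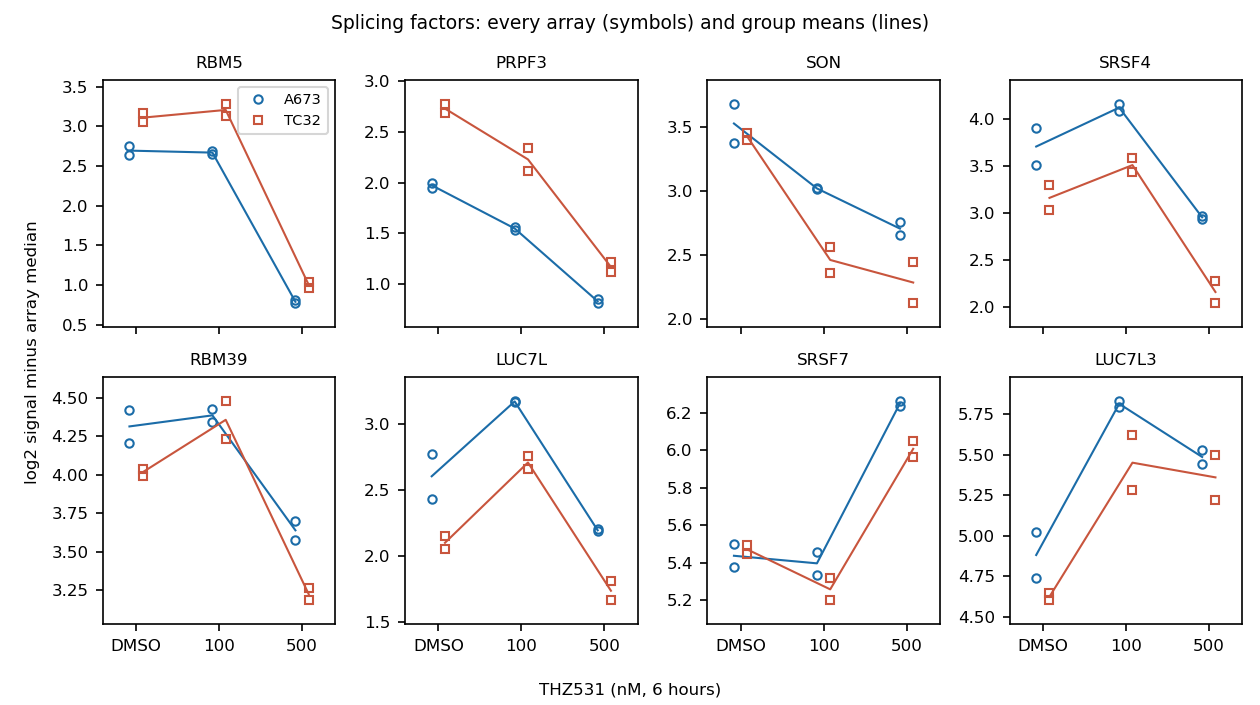
Log2 signal minus the array median (y axis, own range per panel) of 8 members on every array (symbols; circles A673, squares TC32) by treatment (x axis, DMSO or THZ531 in nM), with lines through group means. RBM5 and RBM39 lie below DMSO at 500 nM in both lines, PRPF3 and SON are already lower at 100 nM, and SRSF7 is highest at 500 nM; as deposited, SRSF7 at 500 nM is not called against DMSO in either line.

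Of the 9 tested genes of the RBM, SON, SRRM and LUC7-like group, 5 in A673 and 6 in TC32 were lower and 2 and 3 higher at 500 nM relative to the array medians. The shares of all tested genes were 27.4% and 30.7% lower, and 29.8% and 41.3% higher. The group medians were -0.29 and -0.31 relative, -1.13 and -1.10 as deposited and -0.20 and -0.16 with quantile normalisation, and -0.02 and -0.03 with 75th percentiles. RBM5, a regulator of alternative exons of apoptosis genes and a component of early spliceosomes, measured 9.95 and 9.82 under DMSO, then 9.26 and 9.23 at 100 nM and finally 7.36 and 6.94 at 500 nM as deposited in A673. In TC32 it measured 9.70 and 9.53 under DMSO, then 9.49 and 9.52 at 100 nM and finally 6.71 and 6.72 at 500 nM. The 100 nM arrays lay near DMSO in TC32 and all 500 nM arrays lay more than 2 units below DMSO. As deposited RBM5 was 6.67-fold lower in A673 and 7.47-fold lower in TC32 at 500 nM. Relative to the array medians the differences were -1.91 (SE 0.11, adjusted p = 5.34e-12) and -2.11 (SE 0.11, adjusted p = 6.62e-13), and those at 100 nM were -0.025 and 0.10 (adjusted p = 0.877 and 0.473). The step from 100 to 500 nM was -1.88 in A673 (adjusted p = 6e-11) and -2.20 in TC32 (adjusted p = 8.76e-13).

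RBM39, a U2AF2-like cofactor of splicing, was also lower at 500 than at 100 nM. In A673 it measured 11.53 and 11.50 under DMSO, then 11.04 and 10.89 at 100 nM and finally 10.30 and 9.71 at 500 nM as deposited. The TC32 signals were 10.58 and 10.47 under DMSO, then 10.60 and 10.72 at 100 nM and finally 8.93 and 8.95 at 500 nM. The 500 nM arrays were the lowest of each line without overlap. On the relative scale RBM39 fell at 500 nM, at -0.68 (SE 0.11, adjusted p = 2.81e-05) in A673 and -0.79 (SE 0.11, adjusted p = 2.34e-06) in TC32. At 100 nM it was 0.072 (adjusted p = 0.637) and 0.34 (adjusted p = 0.0151), the latter not called without TC32 DMSO replicate 1 (0.36), TC32 DMSO replicate 2 (0.32) or TC32 100 nM replicate 2 (0.22). The step from 100 to 500 nM was -0.75 and -1.13 (adjusted p = 1.24e-05 and 1.7e-08).

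SON, a large speckle scaffold needed for splicing of transcripts with weak splice sites, measured 10.69 and 10.75 under DMSO, then 9.62 and 9.57 at 100 nM and finally 9.35 and 8.78 at 500 nM as deposited in A673. TC32 gave 9.99 and 9.87 under DMSO, then 8.72 and 8.80 at 100 nM and finally 7.86 and 8.13 at 500 nM. Its main drop came between DMSO and 100 nM, with no overlap of DMSO and treated arrays. With array medians removed SON was lower at 100 nM by 0.51 in A673 (adjusted p = 0.00335) and by 0.96 in TC32 (adjusted p = 2.57e-06), and at 500 nM the differences were -0.82 (SE 0.13, adjusted p = 1.49e-05) and -1.14 (SE 0.13, adjusted p = 9.72e-08). The step from 100 to 500 nM was -0.31 (adjusted p = 0.0638) and -0.18 (adjusted p = 0.25), and as deposited it was called in both lines (-0.53, adjusted p = 0.0387, and -0.76, adjusted p = 0.000568). The calls of SON against DMSO held under every alternative run in both lines at both doses.

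LUC7L and LUC7L3 are relatives of a yeast U1 snRNP protein that acts in 5′ splice site choice. LUC7L measured 2.43 and 2.77 under DMSO, then 3.16 and 3.17 at 100 nM and finally 2.20 and 2.19 at 500 nM relative to the array median in A673. TC32 arrays measured it at 2.15 and 2.05 under DMSO, then 2.66 and 2.76 at 100 nM and finally 1.66 and 1.81 at 500 nM. Its 100 nM arrays were above and its 500 nM arrays below DMSO in both lines. The 500 nM differences were -0.41 (SE 0.12, adjusted p = 0.00745) in A673 and -0.36 (SE 0.12, adjusted p = 0.0117) in TC32, and were not called with 75th percentiles (-0.14 and -0.086), in TC32 with quantile normalisation (-0.12), or without A673 DMSO replicate 2 (-0.24), TC32 DMSO replicate 1 (-0.31) or TC32 500 nM replicate 1 (-0.29). The rise at 100 nM was 0.57 and 0.61 (adjusted p = 0.000799 and 0.000306) and the fall from 100 to 500 nM 0.97 in both lines (adjusted p = 1.1e-06 and 6.05e-07).

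LUC7L3 measured 4.74 and 5.02 under DMSO, then 5.80 and 5.83 at 100 nM and finally 5.45 and 5.53 at 500 nM relative to the array median in A673. In TC32 it measured 4.65 and 4.60 under DMSO, then 5.28 and 5.62 at 100 nM and finally 5.22 and 5.50 at 500 nM. All treated arrays stood above DMSO on this scale. It was higher by 0.93 (SE 0.12, adjusted p = 1.44e-06) in A673 and 0.83 (SE 0.12, adjusted p = 4.15e-06) in TC32 at 100 nM, and by 0.60 (adjusted p = 0.000143) and 0.74 (adjusted p = 8.98e-06) at 500 nM. As deposited only the TC32 rise at 100 nM was called (0.62, adjusted p = 0.00155), and that not without TC32 DMSO replicate 2 (0.56) or TC32 100 nM replicate 2 (0.51). RBM10, a paralogue of RBM5, stood at -0.29 and -0.31 at 500 nM relative to the array medians (adjusted p = 0.0386 and 0.025) but at -0.023 and -0.029 with 75th percentiles. Its A673 call was lost without any 1 of the A673 arrays other than DMSO replicate 1 and without either TC32 DMSO array, and its TC32 call without TC32 DMSO replicate 1 (-0.24) or TC32 500 nM replicate 1 (-0.26). RBM25, a U1-associated regulator, rose at 100 nM (0.70 and 0.75 relative) and fell from 100 to 500 nM (-0.69 and -0.43; adjusted p = 4.21e-05 and 0.00244). SRRM2, a speckle protein, was higher at both doses in both lines relative to the array medians (0.33 to 0.64), though not in TC32 at 500 nM without TC32 DMSO replicate 2 (0.20) or TC32 500 nM replicate 2 (0.22). SRRM1, a coactivator that bridges exonic enhancers and the splicing machinery, rose at 100 nM in A673 (0.42, adjusted p = 0.00432), a call lost without A673 DMSO replicate 1 (0.30) or A673 100 nM replicate 2 (0.36). Its TC32 value at 500 nM was -0.26 (adjusted p = 0.0445) relative and 0.021 with 75th percentiles (adjusted p = 0.803).

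The hnRNP and PTB genes, which bind nascent transcripts and often repress exons, had the smallest median difference from DMSO as deposited among the 5 groups of members at 500 nM. At 500 nM all 7 were lower as deposited in A673 (median -0.36) and 1 in TC32 (median -0.23), while relative to the array medians 6 in A673 and all 7 in TC32 were higher (0.47 and 0.56). The shares of all tested genes were 82.5% and 62.9% lower as deposited, and 29.8% and 41.3% higher relative to the array medians. With quantile normalisation the median lay at -0.0004 in A673 and -0.06 in TC32, with 1 member higher in each line and 1 lower in TC32, so the direction of the group depended on the scaling. HNRNPA1 measured 13.87 and 13.72 under DMSO, then 13.47 and 13.42 at 100 nM and finally 13.66 and 13.33 at 500 nM as deposited in A673. The TC32 signals were 13.37 and 13.27 under DMSO, then 13.27 and 13.29 at 100 nM and finally 13.15 and 13.17 at 500 nM. The TC32 arrays with DMSO and at 100 nM overlapped, and all treated A673 arrays lay below DMSO. After centring on array medians it was 0.53 (SE 0.072, adjusted p = 1.91e-06) and 0.64 (SE 0.072, adjusted p = 9.96e-08) above DMSO at 500 nM, and with quantile normalisation the values were -0.023 and -0.13 (adjusted p = 0.603 and 0.00736). As deposited they were -0.30 (adjusted p = 0.0326) and -0.16 (adjusted p = 0.291). The deposited A673 call was lost without A673 DMSO replicate 1 (-0.23) or A673 500 nM replicate 2 (-0.13), and by little (adjusted p = 0.0502 to 0.0532) without either A673 100 nM array or any 1 TC32 array but 100 nM replicate 1.

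HNRNPK, which binds C-rich RNA, measured 12.22 and 12.22 under DMSO, then 11.84 and 11.82 at 100 nM and finally 12.09 and 11.62 at 500 nM as deposited in A673. TC32 gave 11.67 and 11.66 under DMSO, then 11.77 and 11.77 at 100 nM and finally 11.50 and 11.50 at 500 nM. HNRNPC, which binds uridine tracts, measured 13.28 and 13.15 under DMSO, then 12.91 and 12.84 at 100 nM and finally 13.03 and 12.66 at 500 nM in A673. All treated A673 arrays of both genes lay below DMSO as deposited. The HNRNPC signals as deposited in TC32 were 12.81 and 12.74 under DMSO, then 12.67 and 12.73 at 100 nM and finally 12.60 and 12.59 at 500 nM. HNRNPA2B1 measured 12.84 and 12.95 under DMSO, then 12.54 and 12.33 at 100 nM and finally 12.66 and 12.42 at 500 nM in A673 and, in TC32, 12.24 and 12.43 under DMSO, then 12.19 and 12.21 at 100 nM and finally 12.10 and 12.05 at 500 nM. Relative to the array medians these 3 genes were higher by 0.47 to 0.63 at 500 nM in both lines, and with quantile normalisation they lay between -0.10 and 0.044, none called. HNRNPU, a scaffold-attachment RNA-binding protein, rose at 100 nM in TC32 under all 4 scalings, at 0.67 (SE 0.090, adjusted p = 2.52e-06) relative. As deposited it was at 0.46 (adjusted p = 0.018), a call lost without any 1 of the 4 TC32 DMSO and 100 nM arrays (adjusted p = 0.0804 to 0.211). PTBP1 was higher at both doses in both lines relative to the array medians (0.37 to 0.44; -0.060 and -0.12 at 500 nM with quantile normalisation), though not in A673 at 100 nM without A673 100 nM replicate 2 (0.29). PTBP2, its neural paralogue, was higher at 500 nM in TC32 (0.40, adjusted p = 0.017), a call lost without TC32 DMSO replicate 2 (0.33), TC32 500 nM replicate 1 (0.39) or TC32 500 nM replicate 2 (0.41).

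**Figure D4:**
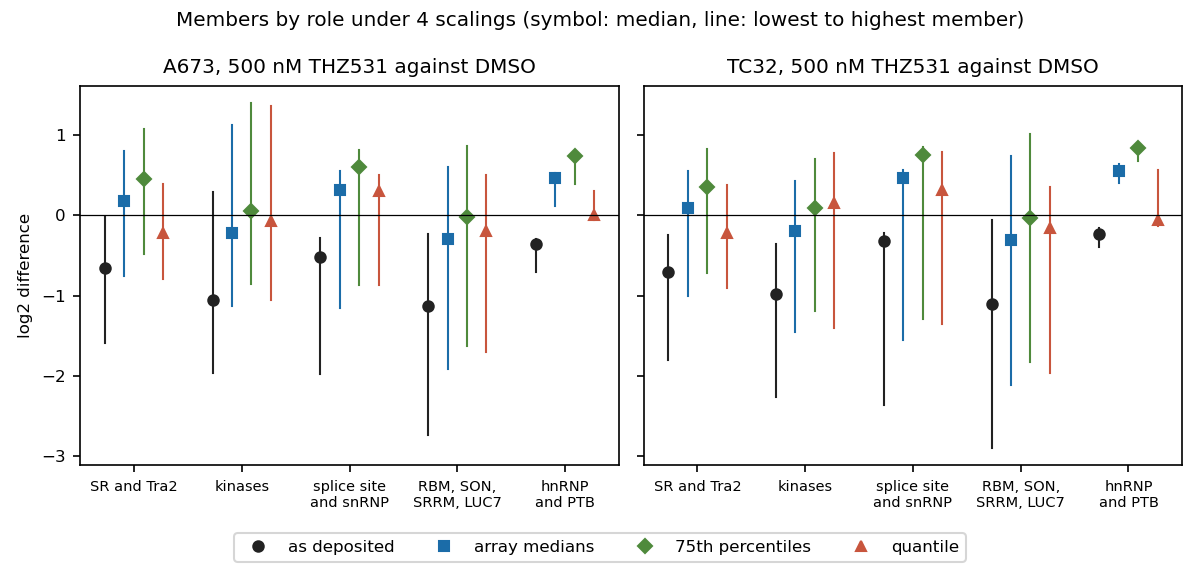
Log2 difference between 500 nM THZ531 and DMSO (y axis) by role of the members (x axis) under 4 scalings (symbol: median of the tested members; line: lowest to highest member), for A673 and TC32. The hnRNP and PTB medians go from -0.36 and -0.23 as deposited to 0.74 and 0.84 with 75th percentiles. SR, kinase and core medians change sign between scalings too. RBM-group medians stay below 0 under all 4, though only just with 75th percentiles (-0.02 in A673 and -0.03 in TC32). The lowest SR, kinase, core and RBM-group members are below 0 under all 4.

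Between the doses, 19 members were called in A673 (15 lower at 500 than at 100 nM, 4 higher) and 25 in TC32 (15 lower, 10 higher) relative to the array medians, beside 35.7% and 59% of all genes. As deposited, 16 members were lower and 1 higher in A673, beside 26.7% and 0.895% of all genes, and 30 were lower and 0 higher in TC32 (limma; also 0 higher at an unadjusted p under 0.05), beside 55.5% and 1.09%. Without A673 500 nM replicate 2 the A673 count relative to the array medians was 12. Called lower in both lines under every alternative run were SRSF4, SRSF5, CLK2, CLK3, SRPK2, PRPF4B, PRPF3, RBM5, RBM25, RBM39 and LUC7L, and these were called as deposited too. SRSF7 was called higher under the same alternatives, with the deposited TC32 value as the exception. Relative to the array medians, 25.2% of all tested genes in A673 and 29.8% in TC32 were lower at 500 than at 100 nM, and 10.5% and 29.2% higher. The shares of all tested genes called in both lines under every alternative are not given here. These lists can therefore not be read as particular to the members.

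Under DMSO, 19 members differed between the lines relative to the array medians (14 higher and 5 lower in A673 than in TC32), beside 55.4% of all tested genes (33.9% higher and 21.5% lower). Of the members higher in A673, SRPK2 had the largest difference, 1.07 (SE 0.13, adjusted p = 4.72e-07), followed by SF3A1 at 0.76 and RBM10 at 0.63. PRPF3 (-0.76), RBM5 (-0.42), CLK2 (-0.38), HNRNPC (-0.25) and HNRNPA1 (-0.21) were lower in A673. The calls of PRPF3 and RBM5 held under every alternative run relative to the array medians. That of CLK2 was lost without TC32 DMSO replicate 1 (-0.34), and those of HNRNPC and HNRNPA1 without A673 DMSO replicate 1 (-0.20 and -0.16) or either TC32 DMSO array. As deposited 40 members were higher in A673 and 0 lower (limma; also 0 lower at an unadjusted p under 0.05), beside 77.4% and 5.12% of all genes, with the A673 array medians 0.69 above those of TC32. CLK1, higher in A673 by 0.40 (adjusted p = 0.0125), was not called without A673 DMSO replicate 1 (0.27) or TC32 DMSO replicate 2 (0.26), nor with 75th percentiles (0.26).

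Other splicing genes, in 4 lists outside the 48, were counted in the same way. At 500 nM relative to the array medians, 19 of 38 tested genes of Sm, LSm and snRNP-specific proteins were higher and 5 lower in A673 (median 0.24), and 21 higher and 7 lower in TC32 (median 0.34). Of 41 genes of the Prp19 complex, helicases and step factors, 8 were higher and 11 lower in A673 (median 0.0) and 10 higher and 15 lower in TC32 (median -0.09). Of 22 further hnRNP genes, 11 were higher and 3 lower in A673 (0.27), and 14 and 4 in TC32 (0.33). Of 40 further splicing regulators, 10 were higher and 6 lower in A673 (0.05) and 16 and 9 in TC32 (0.23). All tested genes had medians of 0.10 and 0.15, with 29.8% higher and 27.4% lower in A673 and 41.3% and 30.7% in TC32. As deposited, all 4 lists had medians below 0 in both lines, from -0.45 to -0.89.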

How the data were processed

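Gene expression was measured on 12 arrays, 2 in each of 6 groups. The deposited values are log2 signals per probe set, on a scale set by the authors. How they were normalised is not given in the sources used here. MAS5 and the builds GRCh37 and hg19 are named, without a role, in the submitters' processing notes. The labels' protocols record ERCC spike-in controls added to total RNA. DMSO arrays carry 100 nM as their labelled dose, taken here not to refer to the drug.

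Of 49395 probe sets, 44994 had 1 gene symbol in the platform annotation, 1832 several and 2569 none. The table repeats 1 value per gene over its probe sets. Only entries with 3 decimals were used (46566; the 2829 others have at most 2), and 58 value sets shared by several symbols were left out, which left 16944 genes. For 10 genes with more than 1 distinct value set, 1 set was kept, and their mean was an alternative. The 10166 genes tested had a mean no lower than the 40th percentile (5.94). limma 3.58.1 (R 4.3.3) fitted 1 mean per group with lmFit and eBayes with a mean-variance trend, and p-values were adjusted by Benjamini and Hochberg over all tested genes, with calls at an adjusted p under 0.05. Comparisons with DMSO were fitted on the values as deposited and on values minus each array's median. The other 5 comparisons were fitted on both scales too, with the second as the main one and the first as an alternative. The fit was tested on simulated data. Alternatives were a replicate block, no filter, a filter at the 60th percentile (7.1), no trend, each array left out in turn, quantile normalisation and centring on 75th percentiles. A view of calls over all scalings jointly was added after seeing the data. The median residual SD was 0.189 as deposited and 0.118 relative, on 6 residual degrees of freedom. The prior degrees of freedom were infinite as deposited and 15.75 relative. The deposited p-values of the main fit thus rest on the spread pooled over genes along the trend, not on each gene's own spread. The number of arrays limits the precision.

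Given with all 12 values were members called in the same direction in both lines at 500 nM (up to 8 lowest and 8 highest by mean relative difference), members whose 500 nM effect differed between lines, and CLK1 to CLK4, SRSF1, SRSF3, TRA2B and SF3B1. The members and all lists were chosen with earlier results of these data known. Promoters were searched with Python 3.11.15.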

Additional observations from a re-analysis of the deposited data

Results flagged for a closer look

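CLK1 differed between the lines in its response to 500 nM THZ531. The difference of the log2 changes from DMSO, TC32 minus A673, was -0.70 relative to the array medians (limma, adjusted p = 0.0181), with A673 at 1.13 and TC32 at 0.43 above DMSO. Over the alternatives run on that scale the adjusted p ranged from 0.00438 to 0.135, and as deposited the difference was -0.66 (adjusted p = 0.387).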

How the results depend on the processing

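With arrays left out in turn, members lower and higher than DMSO as deposited numbered 6 to 29 and 0 to 1 (A673, 100 nM), 23 to 42 and 0 to 2 (A673, 500 nM), 1 to 8 and 1 to 13 (TC32, 100 nM), and 19 to 40 and 0 to 0 (TC32, 500 nM). Relative to the array medians they numbered 2 to 3 and 14 to 29, 6 to 13 and 14 to 21, 3 to 6 and 13 to 24, and 7 to 11 and 17 to 24. Members called between the doses numbered 12 to 21 (A673) and 21 to 26 (TC32), between the lines' effects 0 to 2 (500 nM) and 0 to 1 (100 nM), and between the lines under DMSO 13 to 22. Quantile normalisation gave 11 lower and 15 higher (A673, 100 nM), 17 lower and 15 higher (TC32, 500 nM), and 8 and 5 members whose 500 and 100 nM effects differed between the lines. The 75th percentiles gave 6 lower and 30 higher (A673, 500 nM), and 6 and 3 for the lines' effects. Without the trend 3 members were lower in TC32 at 100 nM on either scale. As deposited, the lines' effects differed for 0 members (500 nM; 1 at an unadjusted p under 0.05, limma) and 1 (100 nM), and 40 members differed under DMSO. The cause of these changes was not tested.

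Signs turned for single members relative to the array medians. With quantile normalisation, A673 at 100 nM gave -0.28 for SRSF1, -0.35 for SRSF3, -0.12 for SRSF5, -0.054 for SRSF9, -0.21 for RBM39, -0.13 for HNRNPA1, -0.14 for HNRNPC and -0.16 for HNRNPK. A673 at 500 nM gave -0.24 for SRSF1, -0.020 for SRSF9, -0.20 for TRA2B, -0.14 for SRRM1, -0.023 for HNRNPA1, -0.0004 for HNRNPA2B1, -0.025 for HNRNPC and -0.060 for PTBP1. TC32 at 100 nM gave -0.14 for HNRNPA1 and -0.16 for HNRNPC. TC32 at 500 nM gave -0.35 for SRSF5, -0.16 for SRSF6, -0.070 for SRSF7, -0.046 for SRSF9, -0.19 for SRSF11, -0.39 for TRA2B, -0.13 for HNRNPA1, -0.10 for HNRNPA2B1, -0.064 for HNRNPC, -0.047 for HNRNPU and -0.12 for PTBP1. Between the doses TC32 gave -0.044 for SRSF1, -0.20 for SRSF3 and -0.036 for HNRNPK, and under DMSO RBM25 was -0.16. With 75th percentiles, SRSF1 in TC32 was 0.27, SRSF3, SRSF5 and SRSF11 in A673 were 0.17, 0.012 and 0.27, and SRRM1 in TC32 was 0.021 at 500 nM against DMSO. Between the doses PRPF8 and HNRNPU in A673 were 0.20 and 0.15, and TRA2B, SNRNP70 and PTBP1 in TC32 were 0.16, 0.19 and 0.19. SRSF7 as deposited went from -0.265 to 0.227 in A673 at 500 nM with arrays left out in turn, the latter without A673 500 nM replicate 2.

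Of the log2 differences of single members recomputed under the alternatives, 9487 kept direction and side of the threshold, 469 lost a call, 264 gained one and 44 turned sign. With the replicate number as a block 12 calls were gained and 0 lost, the calls between the doses going to 21 (A673) and 26 (TC32) and those under DMSO to 23. Same-numbered samples deviated together (r over 0.1) in 5 of 15 pairs of groups (-0.15 to 0.44), so the numbers were not taken to pair the samples. With 2 arrays per group and an unknown scaling, directions that change between scalings cannot be settled here.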
